A study of Mus musculus with 18 samples.

Results

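Mitochondrial ribosomal protein genes were followed through stress erythropoiesis, the rapid production of red cells that takes place mostly in the mouse spleen. The genes were taken by name alone: every gene of the spleen count table whose symbol begins with Mrpl or Mrps and a digit, which gave 77 of 24072 genes. The rule uses no measured value. By their known place in the particle, 50 encode proteins of the large subunit and 26 proteins of the small subunit. The remaining gene, Mrps36, encodes a protein that is now placed in the oxoglutarate dehydrogenase complex and not in the ribosome.

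RNA had been sequenced from 4 sorted progenitor populations of B6SJL mice, with 3 libraries each. Of these, 3 populations came from spleens taken on day 8 after lethal irradiation and a transplant of whole, unsorted marrow: multipotent progenitors (MPP, titled Sca-pos), burst-forming erythroid progenitors (BFU-E, titled Sca-neg) and colony-forming erythroid progenitors (CFU-E, titled CD9-neg). The fourth was BFU-E from bone marrow (BM) at steady state. All populations had been depleted of cells carrying B220, CD4, CD8, Gr-1 or Ter-119 and sorted by flow cytometry, with another streptavidin fluorophore in the steady-state sorts. ATAC-seq, which maps accessible chromatin, covered both BFU-E populations, with 3 libraries each and 1 merged peak list per population. Age and sex of the mice, and whether the libraries of a group came from separate mice, are not given in the sources used here, so p-values measure only the spread between these libraries. Whether the spleen cells descended from the transplant or from the host is not given either. The BFU-E populations differ at once in tissue, irradiation, transplantation and staining, which cannot be told apart.

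The mitochondrial ribosome, or mitoribosome, is the particle that translates the few proteins encoded in mitochondrial DNA, all of them subunits of the respiratory chain and the ATP synthase. Its own proteins are encoded in the nucleus, made in the cytosol and imported. Many descend from bacterial ribosomal proteins, and others joined the particle after the endosymbiont became an organelle. Erythroid progenitors need mitochondria for heme synthesis, which begins and ends inside the organelle, and some inherited mitochondrial defects cause anaemia.

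The libraries held 5937778 to 13197159 counts in the spleen table and 6758871 to 12926718 in the table of both BFU-E populations. Markers followed the labels in part. Erythroid markers (8 genes) summed to 1932 to 1972 CPM (counts after scaling for library size) in CFU-E, against 293.7 to 340.6 for stress BFU-E and 167.8 to 226.9 for MPP. Stem and MPP markers (8 genes) summed to 663.6 to 751.2 CPM in MPP, against 429.1 to 451.3 for stress BFU-E and 95.79 to 136.7 for CFU-E. Megakaryocyte markers (6 genes) were at 77.55 to 88.45 CPM in CFU-E, against 1718 to 1998 in stress BFU-E and 953.2 to 1101 in MPP. Myeloid and macrophage markers (8 genes) reached 612.1 to 741.6 CPM in stress BFU-E. In MPP they ranged from 79.3 to 426.7, and in CFU-E from 29.46 to 61.84, where Adgre1 and Fcgr1 were at 0 in all 3 libraries. The T cell marker Cd3e was at 0 in all 9 spleen libraries. The part of these other cell types in the results that follow was not tested.

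The promoters of the members were open in both BFU-E populations. In stress BFU-E, 77 of the 77 members had an ATAC peak within 1000 bp of the transcription start given in the count table, and in BM BFU-E 76 of 77 had one. Among all 10166 genes tested in the spleen libraries, 95.1% had such a peak in stress BFU-E and 91.5% in BM BFU-E, so that a promoter peak is common among expressed genes. At 74 of 77 members in stress BFU-E the peak carried the highest score of the authors' list, 1000, and in BM BFU-E this held for 45 of 76. Over the whole lists, at promoters and elsewhere, 49.2% and 30.4% of intervals carried that score, and the lists held 61661 and 35142 intervals. Promoter peaks at or above the median score of the list stood at 96.1% of members and 89.1% of genes tested in stress BFU-E. In BM BFU-E these shares were 75.3% and 76.6%, so the members did not stand out there. The score is capped and the lists differ, so it was not compared between the populations. The peaks spanned a median of 1012 bp in stress BFU-E (601 to 1724) and 1080 bp in BM BFU-E (384 to 2118).

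Mrpl22, which encodes a large-subunit protein with a bacterial homologue, was the member without a BM promoter peak. Its stress BFU-E peak lay at chr11:58171404-58172098 (mm10) and covered the start of the gene with a score of 859, the lowest of the 77. In RNA it was at 17.47, 20.28 and 20.86 CPM in the BM BFU-E libraries and at 16.97, 10.33 and 13.14 in stress BFU-E. The population without a listed peak was thus the higher in RNA, without overlap, although the difference of -0.53 ± 0.642 (log2, SE, n = 3 against 3) did not pass the test (edgeR adjusted p = 0.855).

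For 68 of the 77 members the promoter, from 250 bases before to 50 bases after the start, was read from RefSeq (GRCm38.p6). The start meant here is the RefSeq start nearest to that of the count table. These starts lie 32 bases apart at Mrpl12, 10 at Mrpl22 and 740 at Mrpl20. For Mrpl12 the start of the count table lies downstream of the stretch shown. The members without an entry were Mrpl4, Mrpl13, Mrpl15, Mrpl19, Mrpl38, Mrpl54, Mrps28, Mrps34 and Mrps35. The stretch from 100 bases before to 20 after the start is shown for the 3 members that rose most firmly from BFU-E to CFU-E and for Mrpl22. The peaks of these promoters are the ones described in the text. Capitals mark matches to CCGGAAG (the ETS site used by GABP, also known as NRF-2) and to GCATGCGC (the site of NRF1), on either strand. Both factors are known regulators of nuclear genes for mitochondria.
Mrpl52, chr14:54426809-54426928, plus strand: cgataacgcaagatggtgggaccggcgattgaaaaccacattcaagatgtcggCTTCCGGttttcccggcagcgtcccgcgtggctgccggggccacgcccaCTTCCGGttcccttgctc
Mrps22, chr9:98601660-98601779, minus strand: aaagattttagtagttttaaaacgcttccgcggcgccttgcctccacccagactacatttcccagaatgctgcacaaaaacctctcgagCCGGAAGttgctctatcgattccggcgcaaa
Mrpl12, chr11:120484537-120484656, plus strand: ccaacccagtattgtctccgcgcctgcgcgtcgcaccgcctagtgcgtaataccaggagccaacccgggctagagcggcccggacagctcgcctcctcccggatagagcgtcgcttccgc
Mrpl22, chr11:58171564-58171683, plus strand: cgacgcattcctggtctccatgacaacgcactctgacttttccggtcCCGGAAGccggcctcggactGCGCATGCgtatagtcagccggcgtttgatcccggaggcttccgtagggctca

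Mrpl52 held the ETS letters on both sides of its start, Mrps22 once just before it, and Mrpl22 held an ETS and an NRF1 match. Mrpl12 held neither in this window. The Mrpl52 peak spanned chr14:54426189-54427396 in stress BFU-E, with a score of 1000, and chr14:54426171-54427288 in BM BFU-E, with a score of 831. At Mrps22 the peaks spanned chr9:98601140-98601976 and chr9:98601154-98602050, and at Mrpl12 chr11:120483989-120485134 and chr11:120484013-120485096, all with a score of 1000. Each of these peaks covers the printed stretch.

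Across the 68 promoters of 300 bases, the ETS letters were found in 24 (35.3%), against 21.2% of 7830 promoters of tested genes and 12.1% of all 17038. The NRF1 letters were found in 8 (11.8%, against 6.19% and 3.75%). The letters of YY1, AAGATGGC, a factor whose site often lies just downstream of a start, were found in 12 (17.6%, against 5.48% and 3.33%). At least 1 of these 3 was found in 36 members (52.9%, against 29.8% and 17.6%). AGATAA, a site of the erythroid GATA factors, was found in 11 (16.2%, against 5.80% and 9.60%), and CCNCACCC, a site of the KLF factors, also in 11 (16.2%, against 19.3% and 18.2%). For SP1, GGGCGG was found in 34 of 68 (against 67.9% and 47.8%). For NF-Y, CCAAT was found in 27 (39.7%, against 39.0% and 38.6%). The E-box CACGTG, which MYC can bind, was found in 5 (7.35%, against 10.8% and 8.15%). TATAAA was found in 4 (5.88%, against 5.96% and 12.8%). Both strands were searched. ETS and SP1 matches overlapped in 2 members, NF-Y and GATA matches in 1 and SP1 and KLF matches in 1. The median GC content of the members' promoters was 58.2%, against 61.7% for tested genes and 56.7% for all. These are matches of letters, given as a description.

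Levels of the members spanned a wide range per length. RPKM, reads scaled to exon length and library size, was taken from the authors' tables, the spleen values from the table of all libraries and the BM values from the table of both BFU-E populations. Mrpl52, a protein of the large subunit found only in mitochondria, had the highest mean over the 12 RNA libraries, 136.5 RPKM. It was at 100.5 ± 33.67 RPKM in MPP, 97.43 ± 7.47 in stress BFU-E, 223.3 ± 16.76 in CFU-E and 124.8 ± 29.07 in BM BFU-E (mean ± SD, n = 3). Mrpl12, the bL12 protein of the stalk that recruits translation factors, followed with 65.86 RPKM, and it lay below Mrpl52 in each of the 12 libraries. Mrpl18 followed at 59.44 RPKM, Mrpl54 at 44.31 and Mrpl42 at 42.55. The first 3 kept this order in each spleen population, but the ranks after them differed, and in BM BFU-E Mrps21 (70.22 RPKM) and Mrpl42 (53.46) stood above Mrpl12 (50.48). In MPP, Mrpl12 (59.26 ± 8.878) and Mrpl18 (58.39 ± 9.829) did not differ beyond their spread, nor did they in stress BFU-E (59.08 ± 6.056 and 58.72 ± 13.60). The median member was at 16.56 RPKM.

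**Figure D1:**
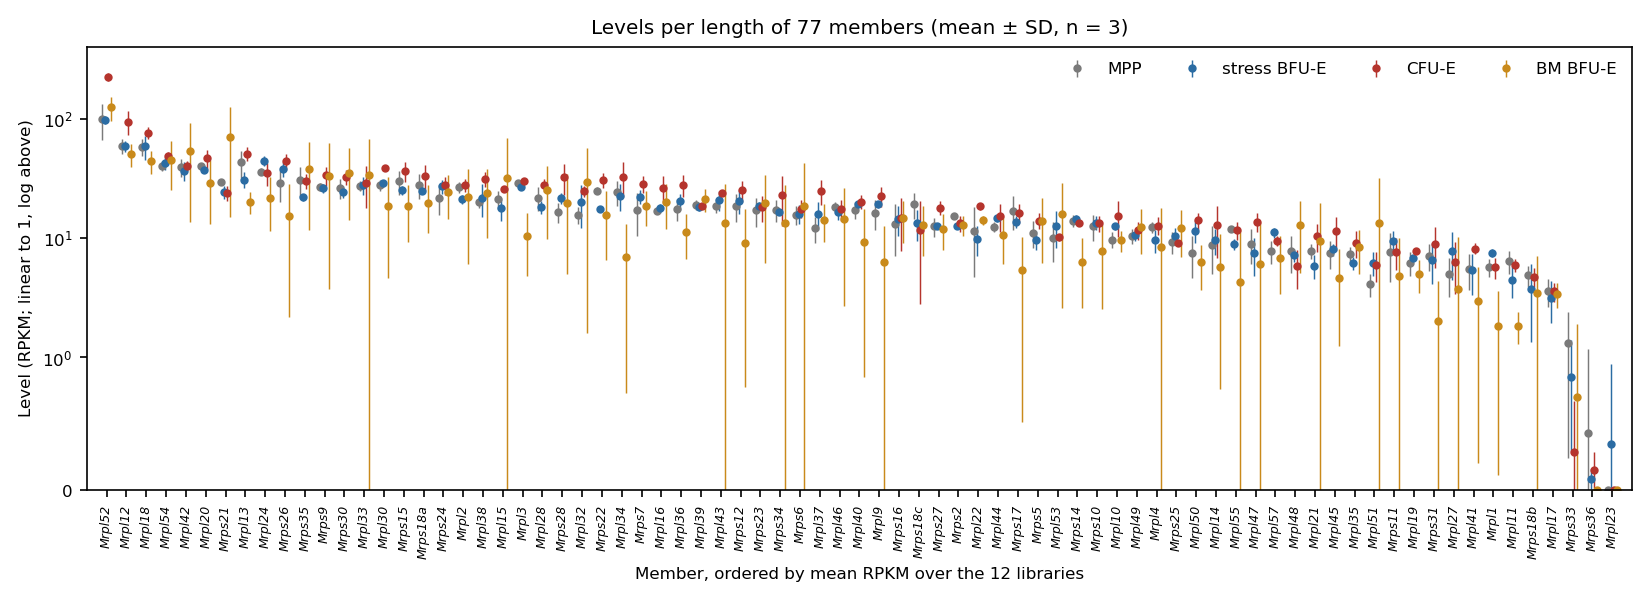
Level per length (RPKM, linear to 1 and logarithmic above) of the 77 members in MPP, stress BFU-E, CFU-E and BM BFU-E, as mean ± SD of 3 libraries, ordered by the mean of the 12 libraries. Mrpl52 stands highest at 136.5 RPKM, and Mrps33, Mrps36 and Mrpl23 lie below 1.

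The lowest members were Mrps18b (4.211 RPKM), Mrpl17 (3.436), Mrps33 (0.7899), Mrps36 (0.1671) and Mrpl23 (0.08717). Of these, 4 have a near-identical copy elsewhere in the genome, and no other member has one (at least 98% identity over at least 50% of the transcript, on GRCm38). For Mrpl23, 540 of 540 aligned bases matched on chromosome 2. For Mrps33, 616 of 617 matched on chromosome 7. For Mrps36, 622 of 624 matched on chromosome 17, and for Mrps18b, 704 of 705 on chromosome 2. How the authors counted reads that map to several places is not given in the sources used here. The low values of these 4 genes are therefore uncertain, and the part of the copies in them was not tested. A further 14 members, for 18 in all, have a less similar second locus.

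Mrpl23, Mrps33 and Mrps36 were also the members that did not reach the mean of 50 counts set for the main test. Mrpl23, a large-subunit protein, had a count of 0 in 8 of 9 spleen libraries, which allows up to 3 counts in each, and 14 counts in stress BFU-E library 3. Mrps33, a small-subunit protein, had 41, 1 and 31 counts in MPP, 7, 19 and 34 in stress BFU-E and 0, 3 and 15 in CFU-E, with overlap between the groups. Mrps36 had at most 10 counts in any spleen library. The other 74 members entered it. Of the 77, 7 share over 10% of their exon bases with another gene, led by Mrps25 with 58.4% (Nr2c2, opposite strand), Mrpl24 with 37.4% (Rrnad1, opposite strand) and Mrpl43 with 31.7% (Twnk, opposite strand). The strand used for counting is not stated, so reads of such pairs cannot be told apart.

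From stress BFU-E to CFU-E, the mitoribosomal genes moved toward higher levels. Of the 74 tested, 63 (85.1%) had a log2 fold change above 0, against 49.8% of all 10166 genes, and their median was 0.32 (interquartile range 0.08 to 0.52) against -0.002 for all genes. Of the 74, 8 (10.8%) rose past an adjusted p of 0.05 and 0 fell, where 9.17% of all genes rose and 11.9% fell. The share that rose is thus near the background, while no member was among the genes that fell. At an unadjusted p under 0.05, 25 members were higher and 0 lower, against 14.8% and 16.9% of all genes. DESeq2, which called 2409 genes, called 11 members higher and 0 lower. The CFU-E libraries did not overlap the BFU-E libraries in 30 members, with CFU-E higher in 29 and lower in 1, Mrpl57, against 18.2% and 19.3% of all genes. In bulk samples like these, fewer cells of a type and less RNA per cell cannot be told apart.

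Among large-subunit proteins with a bacterial homologue, Mrpl12 rose. It was at 173.9, 184.3 and 133.7 CPM in the CFU-E libraries, at 102.0, 114.5 and 90.11 in stress BFU-E and at 85.35, 124.0 and 95.18 in MPP. All 3 CFU-E libraries lay above all libraries of the other populations. The log2 fold change from stress BFU-E was 0.68 ± 0.158 (SE; edgeR adjusted p = 0.00322). Mrpl13, in the uL13 family, was at 71.3, 80.01 and 68.02 CPM in CFU-E and 35.01, 51.04 and 46.35 in stress BFU-E. Its MPP libraries, at 40.74, 76.88 and 66.29, overlapped both. It rose by 0.73 ± 0.215 (adjusted p = 0.0184). Mrpl28, in the bL28 family, was at 56.96, 46.9 and 59.38 CPM in CFU-E and 39.05, 34.52 and 32.58 in stress BFU-E, a rise of 0.62 ± 0.206 (adjusted p = 0.0357). Mrpl35 and Mrpl15, named after their values were seen, rose by 0.57 ± 0.199 (adjusted p = 0.045) and 0.54 ± 0.156 (adjusted p = 0.0162).

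Among large-subunit proteins found only in mitochondria, Mrpl52 showed the largest rise of all members. It was at 155.6, 178.3 and 169.4 CPM in CFU-E, at 72.5, 78.92 and 65.87 in stress BFU-E and at 54.47, 106.9 and 61.78 in MPP. The lowest CFU-E library was above the highest library of the other groups. The log2 fold change from stress BFU-E was 1.21 ± 0.19 (adjusted p = 6.8e-05). Mrpl37 was at 73.78, 76.62 and 54.5 CPM in CFU-E, at 51.92, 32.4 and 44.86 in stress BFU-E and at 38.87, 30.24 and 27.6 in MPP, and rose by 0.66 ± 0.218 from stress BFU-E (adjusted p = 0.0334).

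In the small subunit, the member that rose was Mrps22, a protein specific to mitochondria in which inherited variants cause a respiratory chain disease. It was at 75.02, 59.35 and 72.09 CPM in CFU-E, at 36.29, 42.64 and 37.54 in stress BFU-E and at 54.55, 53.04 and 56.1 in MPP. The 3 populations did not overlap, and stress BFU-E was the lowest of them. The log2 fold change from stress BFU-E to CFU-E was 0.83 ± 0.178 (edgeR adjusted p = 0.0017). From MPP to CFU-E it was 0.33 ± 0.177 (adjusted p = 0.172), and from MPP to stress BFU-E -0.49 ± 0.178 (adjusted p = 0.148).

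**Figure D2:**
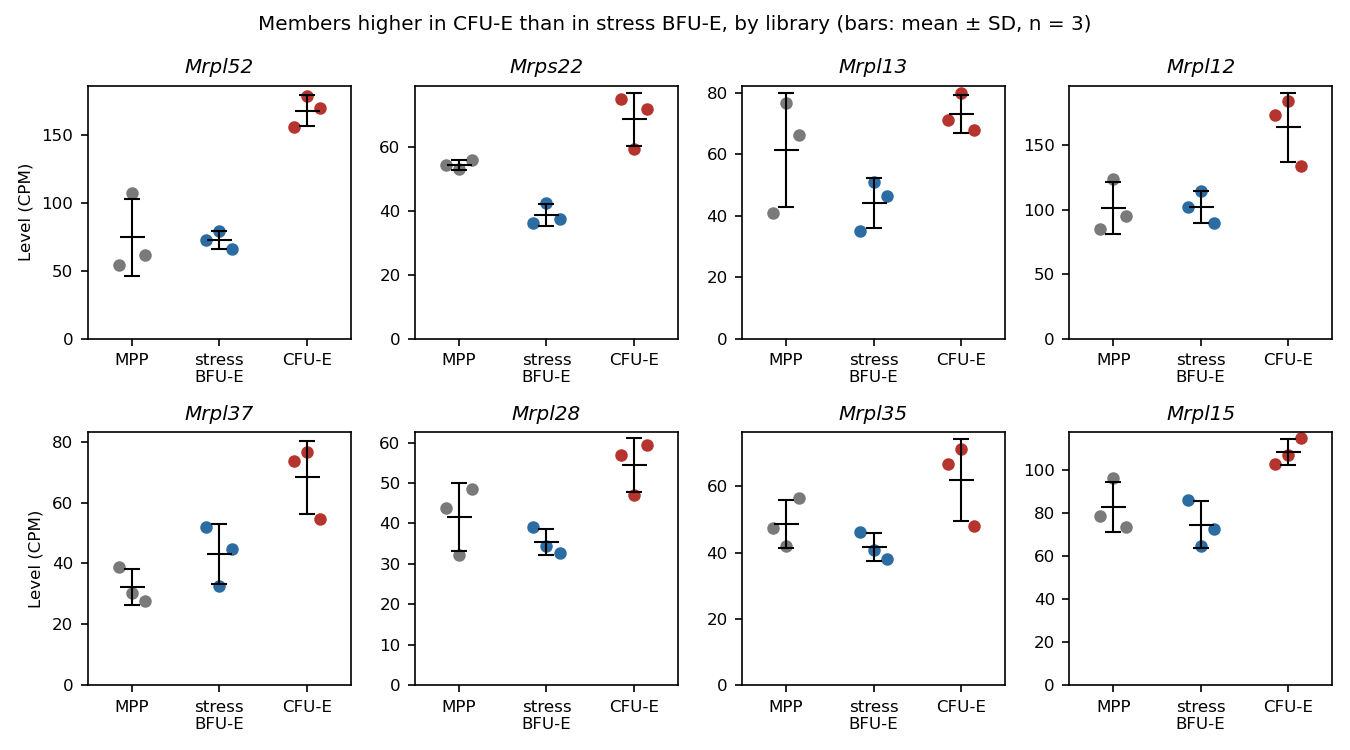
Level (CPM) of the 8 members that rose from stress BFU-E to CFU-E, in each of the 9 spleen libraries (points), with mean ± SD of 3 libraries (bars). In all 8 the CFU-E points lie above the stress BFU-E points, and for Mrpl52, Mrps22, Mrpl12, Mrpl37 and Mrpl15 also above every MPP point.

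These rises did not all depend on the libraries to the same degree. Mrpl52, Mrps22 and Mrpl12 passed in all 11 alternative settings, with adjusted p-values of at most 0.00109, 0.0121 and 0.028. Mrpl13 was lost without CFU-E library 2 or stress BFU-E library 1 (adjusted p up to 0.107), and Mrpl15 without CFU-E library 3 or stress BFU-E library 2 or 3 (up to 0.0906). Mrpl37 was lost without CFU-E library 1 or 2 or stress BFU-E library 2 or 3 (up to 0.168). Mrpl28 was lost without CFU-E library 1 or 3 or any of the 3 stress BFU-E libraries (up to 0.128). Mrpl35 was lost without CFU-E library 1 or 2 or any stress BFU-E library (up to 0.177). It was also lost with all libraries and the replicate number as a block (edgeR adjusted p = 0.0539). Leaving out CFU-E library 1 left 5 members, and leaving out stress BFU-E library 2 or library 3 left 4 each. Fold changes of 0.92 ± 0.401 in Mrpl22, 0.88 ± 0.371 in Mrpl47 and 0.82 ± 0.369 in Mrpl21, named after their values were seen, were larger than most of these but did not pass (adjusted p = 0.116, 0.102 and 0.129). Their levels were low, at 8.106 to 16.98 CPM in stress BFU-E.

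The upward direction was present in each CFU-E library. CFU-E libraries 1, 2 and 3 lay above all 3 stress BFU-E libraries in 46, 50 and 40 of the 74 members, where 34.1%, 34.9% and 32.9% of all genes did so. They lay below all 3 in 9, 6 and 8 members, against 35.4%, 35.6% and 33.1% of all genes. Over the 3 spleen populations, the mean was highest in CFU-E for 55 of 74 members and lowest there for 4, where CFU-E was highest for 40.1% of all genes and lowest for 40.3%.

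**Figure D3:**
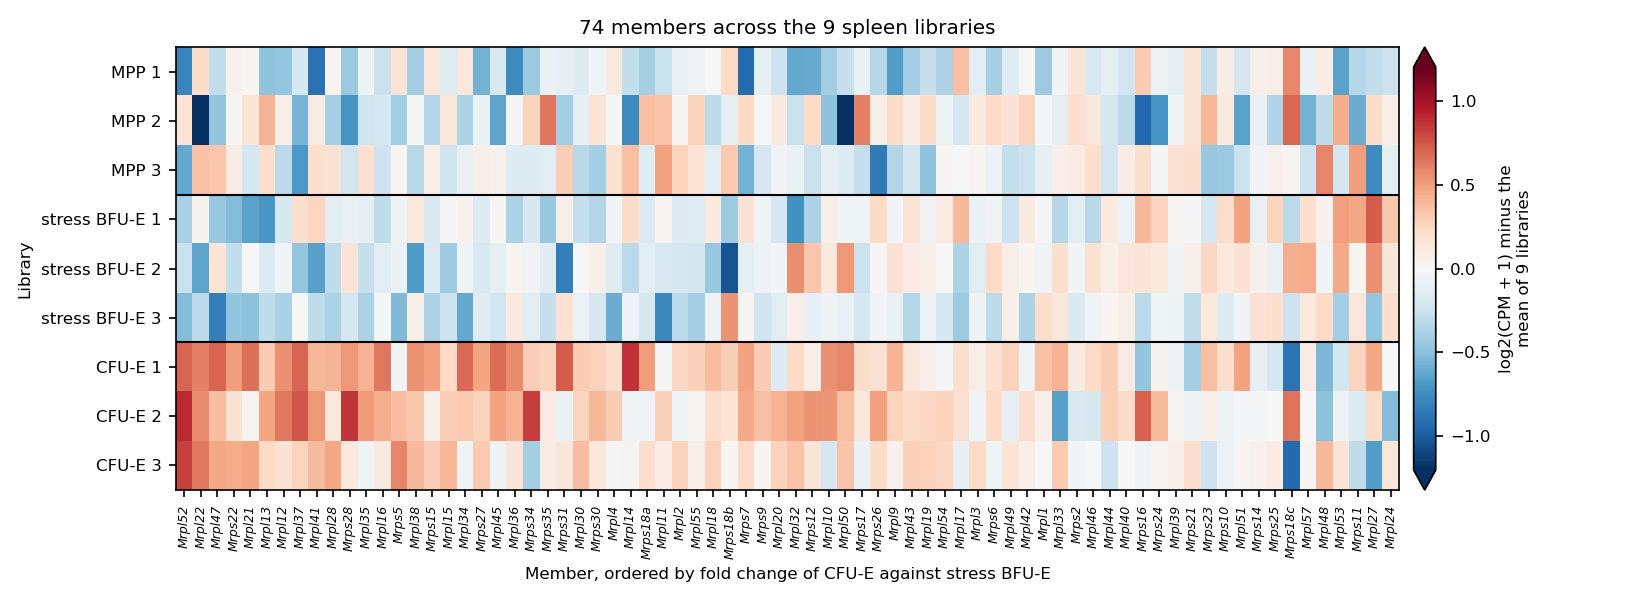
Level of the 74 tested members (columns, ordered by fold change from stress BFU-E to CFU-E) in the 9 spleen libraries (rows), as log2(CPM + 1) minus the mean of the 9 libraries, red for higher and blue for lower. The 3 CFU-E rows are mostly red, most of all at the left end, where Mrpl52 stands.

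From MPP to CFU-E, a comparison that uses the same CFU-E libraries, 14 of 74 members (18.9%) rose and 0 fell, where 12.7% of all genes rose and 16.0% fell. The median was 0.34 against -0.0002 for all genes, and 62 members (83.8%) were above 0, while higher and lower genes were in balance over all genes. At an unadjusted p under 0.05, 19 members were higher and 0 lower, against 17.7% and 20.6% of all genes. DESeq2, which called 3177 genes, called 15 members higher and 0 lower. CFU-E was higher without overlap in 24 members and lower in 0, against 19.1% and 21.2% of all genes.

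Mrpl52 rose by 1.18 ± 0.192 (adjusted p = 7.22e-05), Mrpl37 by 1.08 ± 0.221 (adjusted p = 0.000864) and Mrpl12 by 0.70 ± 0.159 (adjusted p = 0.0022) from MPP to CFU-E. Mrps28, a small-subunit protein of the bS1 family, was at 42.55, 54.02 and 32.13 CPM in CFU-E and 21.26, 17.62 and 25.02 in MPP. The groups did not overlap, and it rose by 1.01 ± 0.252 (adjusted p = 0.00463). Mrpl50, a large-subunit protein specific to mitochondria, was at 60.37, 51.98 and 51.14 CPM in CFU-E and 32.9, 16.59 and 35.98 in MPP. It rose by 0.93 ± 0.256 (adjusted p = 0.00915). These 5 members passed in all 11 alternative settings.

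The other 9 rises from MPP to CFU-E were each lost in at least 1 setting. Mrps7, a protein of the small-subunit head, was at 73.16, 71.97 and 61.51 CPM in CFU-E and at 27.08, 61.68 and 34.82 in MPP, where library 2 reached the CFU-E range. It rose by 0.76 ± 0.237 (adjusted p = 0.0205). Mrpl10, which anchors the bL12 stalk, was at 55.02, 54.1 and 32.13 CPM in CFU-E and 27.62, 26.09 and 34.56 in MPP, with CFU-E library 3 inside the MPP range. It rose by 0.68 ± 0.233 (adjusted p = 0.0335). Mrpl18, in the central protuberance, was at 143.3, 127.0 and 133.9 CPM in CFU-E and 111.0, 88.63 and 100.7 in MPP, a rise of 0.43 ± 0.151 (adjusted p = 0.0396). Mrpl36, Mrpl38, Mrpl16, Mrps26, Mrpl45 and Mrps27, named after their values were seen, rose by 0.69, 0.68, 0.66, 0.65, 0.64 and 0.54. Without CFU-E library 1, 6 members were left, without CFU-E library 2 or MPP library 1, 7 each. Without CFU-E library 2, Mrps18c was lower (-1.51, adjusted p = 0.0273). Adjusted p-values of these 9 reached 0.219 in Mrpl45 without 1 library. MPP library 2 held the fewest counts of the 9 and stood above the other MPP libraries for several members. Without it the count was again 14, but only 10 were shared: Mrpl18, Mrpl10, Mrpl45 and Mrps27 were lost, and Mrpl15, Mrpl19, Mrpl9 and Mrps30 passed.

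Between MPP and stress BFU-E, 0 of the 74 members passed in either direction by edgeR or DESeq2, where 2.03% of all genes rose and 2.11% fell. At an unadjusted p under 0.05, 2 members were higher (Mrpl57 and Mrpl50) and 3 lower (Mrps22, Mrps35 and Mrpl13), against 7.59% and 8.25% of all genes. The median was 0.02 against -0.001 for all genes, with 39 members above 0 and 35 below, and it was -0.01 without stress BFU-E library 2 and -0.005 without MPP library 1. The groups did not overlap in 14 members, with stress BFU-E higher in 7 and lower in 7, against 10.5% and 10.8% of all genes. The largest differences were 0.66 ± 0.557 in Mrpl27 (adjusted p = 0.638), 0.64 ± 0.255 in Mrpl50 (adjusted p = 0.198) and 0.62 ± 0.356 in Mrpl51 (adjusted p = 0.439). At the other end stood Mrpl11 with -0.50 ± 0.272 (adjusted p = 0.393), Mrps18c with -0.50 ± 0.47 (adjusted p = 0.685) and Mrps22 with -0.49. Without MPP library 2, Mrps7 was higher in stress BFU-E (0.80, adjusted p = 0.0358).

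**Figure D4:**
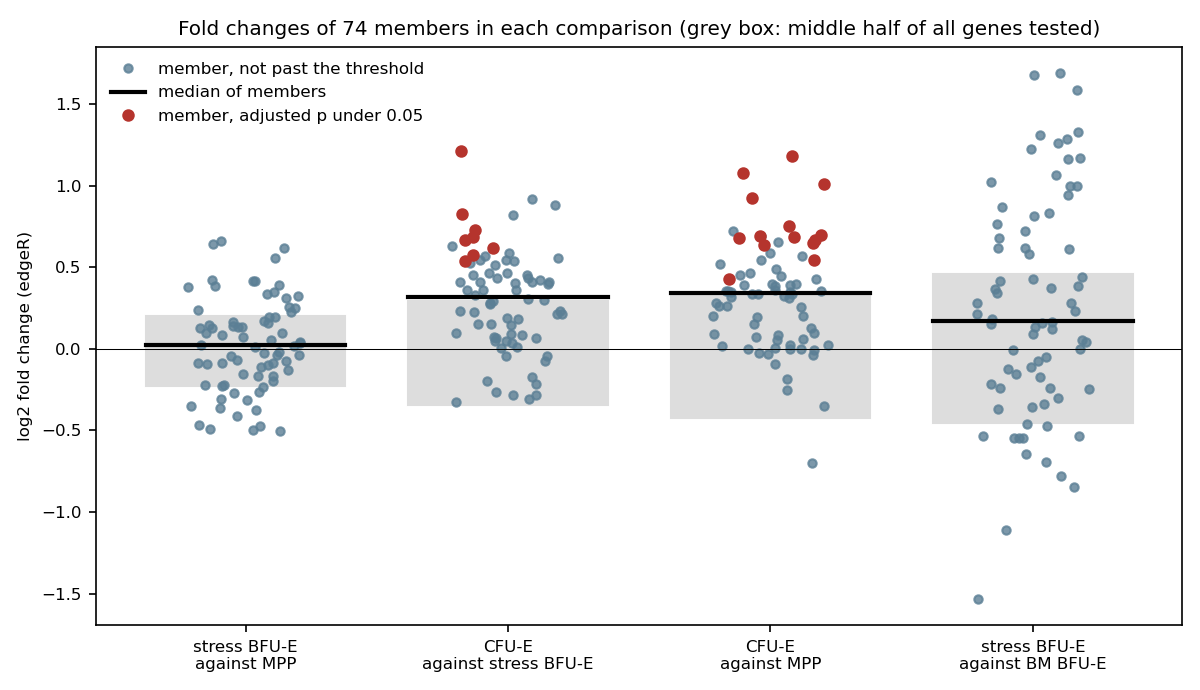
log2 fold change (edgeR) of the 74 tested members in each of 4 comparisons, with members past an adjusted p of 0.05 in red, the members' median as a black line and the interquartile range of all genes as a grey box. The members' median is 0.32 and 0.34 in the comparisons of CFU-E, 0.02 between stress BFU-E and MPP, and 0.17 between stress and BM BFU-E.

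Some members were described whatever their change. Mrps18a, Mrps18b and Mrps18c are paralogues that take different places in the particle, Mrps18a in the large and the others in the small subunit. From stress BFU-E to CFU-E their log2 fold changes were 0.41 ± 0.219, 0.36 ± 0.534 and -0.20 ± 0.47 (adjusted p = 0.21, 0.702 and 0.827). Mrps18c was at 6.122, 19.64 and 5.897 CPM in CFU-E and 9.577, 16.8 and 10.07 in stress BFU-E, so library 2 was the highest in both groups. Mrps30, which despite its name lies in the large subunit, was at 96.1, 104.2 and 87.44 CPM in CFU-E and 61.87, 82.89 and 68.71 in stress BFU-E. The groups did not overlap, but the difference of 0.43 ± 0.172 did not pass (adjusted p = 0.0828). Mrpl55 differed by 0.40 ± 0.297 (adjusted p = 0.39), and Mrpl10, the partner of Mrpl12 in the stalk, by 0.29 ± 0.23 (adjusted p = 0.428).

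Members of both subunits were mostly above 0 in CFU-E, but few passed the test. Against stress BFU-E, 43 of 49 tested large-subunit members were above 0, with a median of 0.40 and 7 that passed. Of the 25 small-subunit members, 20 were above 0, with a median of 0.27 and 1 that passed. Over all genes 9.17% rose in that comparison, so the small subunit's 1 of 25 is not above the background. Split by origin, the medians were 0.41 for 30 large-subunit members with a bacterial homologue, 0.15 for 19 specific to mitochondria, 0.12 for 16 small-subunit members with a bacterial homologue and 0.45 for 9 specific ones. The difference between these classes was not tested. Against MPP, 10 large-subunit and 4 small-subunit members passed, of 49 and 25, with medians of 0.36 and 0.20, where 12.7% of all genes rose.

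Other genes of mitochondrial gene expression, from lists set by function, were read in the same fits. Over all genes 9.17% rose from stress BFU-E to CFU-E, 12.7% from MPP to CFU-E and 2.03% from MPP to stress BFU-E. Of 6 mitoribosomal subunits under other symbols, 1 rose from stress BFU-E to CFU-E. It was Dap3, the GTP-binding protein of the small subunit, at 120.1 ± 4.52 CPM in CFU-E, 61.5 ± 11.1 in stress BFU-E and 69.9 ± 7.61 in MPP (log2 fold change 0.97 ± 0.16 from stress BFU-E, adjusted p = 0.000131). From MPP to CFU-E 3 of the 6 rose: Dap3, Chchd1 and Gadd45gip1 (0.78, 0.61 and 0.58). Of 25 genes of mitoribosome assembly and rRNA maturation, 1 rose from stress BFU-E, C1qbp, which was at 364.1 ± 62.7 CPM in CFU-E and 238.9 ± 12.5 in stress BFU-E (0.61 ± 0.12, adjusted p = 0.000789). From MPP 3 rose, the GTPase gene Noa1 (0.76), Rbfa (0.43) and C1qbp (0.87). These counts of assembly genes are below the shares over all genes. Rbfa, whose product matures the small subunit, was also higher in stress BFU-E than in MPP (0.48 ± 0.13, adjusted p = 0.0417), but without any 1 of the 6 libraries it was not (adjusted p up to 0.149).

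Of 16 genes listed for mitochondrial translation, 3 rose from stress BFU-E to CFU-E. They were the elongation factor gene Gfm1 (0.49 ± 0.162), Lrpprc, whose product stabilises mitochondrial mRNA (0.43 ± 0.117), and Oxa1l, which inserts new chains into the inner membrane (0.51 ± 0.167). From MPP 2 rose, Gfm1 (0.65) and Lrpprc (0.61). Of 20 genes for charging mitochondrial tRNA, Iars2 (0.60 ± 0.118) and Rars2 (0.66 ± 0.23) rose from stress BFU-E, and Iars2 (0.56) from MPP. Over all genes 9.17% rose from stress BFU-E and 12.7% from MPP, so the counts for tRNA charging are near or below the background. Of 8 genes that transcribe and replicate mitochondrial DNA, 1 rose from stress BFU-E, the DNA polymerase gene Polg (0.55 ± 0.179), and 3 from MPP: Polg, the RNA polymerase gene Polrmt and the helicase gene Peo1 (0.78, 0.54 and 0.47). Peo1 is also known as Twnk, which shares exon bases with Mrpl43, so their reads cannot be fully told apart. None of the genes in these lists fell in the comparisons of the spleen populations. Over all genes 2.11% fell from MPP to stress BFU-E, 11.9% from stress BFU-E to CFU-E and 16.0% from MPP to CFU-E. The lists are small, and the absence of falls was not tested. The genes of the 13 proteins encoded by mitochondrial DNA itself were searched for by symbol. Of these, 0 were found among the counted genes, so they could not be analysed.

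Of 8 tested regulators of mitochondrial biogenesis, 2 rose and 1 fell from stress BFU-E to CFU-E. Myc, a transcription factor that drives growth and ribosome production, was at 431.2 ± 29.9 CPM in CFU-E and 235.1 ± 23.4 in stress BFU-E (0.87 ± 0.104, adjusted p = 2.26e-06). The PGC-1-related coactivator gene Pprc1 was at 253.2 ± 37.7 and 171.9 ± 5.03 CPM (0.56 ± 0.147, adjusted p = 0.00856). Gabpb1, a subunit of the ETS factor GABP, fell from 74.67 ± 7.70 CPM in stress BFU-E to 51.24 ± 4.45 in CFU-E (-0.54 ± 0.171, adjusted p = 0.0266). From MPP to CFU-E, Myc (1.23 ± 0.106) and Pprc1 (0.61 ± 0.148) rose and 0 of the 8 fell. Over all genes 9.17% rose and 11.9% fell from stress BFU-E, and 12.7% rose and 16.0% fell from MPP.

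Among these genes, Dap3, C1qbp, Iars2 and Myc passed from stress BFU-E to CFU-E in all 11 alternative settings. Pprc1 was lost without CFU-E library 2 (adjusted p = 0.0658), and Lrpprc without CFU-E library 1 or stress BFU-E library 1 (up to 0.103). Oxa1l was lost without CFU-E library 1 or 2 or stress BFU-E library 1 or 3 (up to 0.152), Polg without CFU-E library 2 or 3 or stress BFU-E library 1 or 2 (up to 0.177) and Gabpb1 without CFU-E library 1 or 2 or stress BFU-E library 1 or 2 (up to 0.119). Gfm1 was lost without any CFU-E library or without stress BFU-E library 1 or 2 (up to 0.153). Rars2 was lost without CFU-E library 1 or 2 or any stress BFU-E library (up to 0.184). It was also lost with all libraries and the replicate number as a block (edgeR adjusted p = 0.0543). From MPP, Chchd1, Gadd45gip1, Polrmt and Peo1 were lost without CFU-E library 1 and without 2 or more other libraries (up to 0.137, 0.0996, 0.153 and 0.133), and Rbfa without CFU-E library 1 (0.0829).

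Genes of the cytosolic ribosome and of the respiratory chain had lower medians than the mitoribosomal members, while the share of them that rose was no lower. Of 64 tested cytosolic ribosomal protein genes, 7 rose and 2 fell from stress BFU-E to CFU-E, with a median of 0.16. Of 71 tested genes of oxidative phosphorylation, 9 rose and 0 fell, with a median of 0.20. From MPP to CFU-E the counts were 16 up and 3 down (median 0.27) and 18 up and 0 down (median 0.30). Over all genes 9.17% and 12.7% rose in these comparisons, and 11.9% and 16.0% fell. The difference of these lists from the mitoribosomal members was not tested.

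As a share of all counts, the 77 members took 0.3898%, 0.3732% and 0.3508% in the CFU-E libraries, 0.3095%, 0.3043% and 0.2904% in stress BFU-E and 0.2643%, 0.2987% and 0.2607% in MPP. CFU-E was above the other groups without overlap. Small and ribosomal non-coding RNA took 16.46% to 23.31% of the counts in MPP and 10.6% to 13.36% in the other spleen libraries. Leaving it out gave 0.405% to 0.436% in CFU-E, 0.3259% to 0.3485% in stress BFU-E and 0.3164% to 0.3619% in MPP, so CFU-E stayed above both. MPP and stress BFU-E overlapped with and without that RNA.

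Between BFU-E of the stressed spleen and of the steady-state marrow, no member passed by edgeR. It called 0 of 74 in either direction, where 0.00934% of all 10702 genes (1 gene) were higher and 0.103% (11 genes) lower in stress BFU-E. At an unadjusted p under 0.05, 3 members were higher in stress BFU-E and 0 lower, against 3.83% and 6.01% of all genes. DESeq2, which called 685 genes, gave 1 member, Mrpl3 (log2 fold change 1.32, adjusted p = 0.0389). With another dispersion trend, chosen after seeing the data, DESeq2 called 579 genes, and the member was Mrpl11 instead (1.25, adjusted p = 0.0431). limma on log2(RPKM + 1) called 0 members of 14 genes. By edgeR, Mrpl3 and Mrpl11 had adjusted p-values of 0.393 and 0.599. The median of the members was 0.17 against 0.01 for all genes, and 45 (60.8%) were above 0 against 50.7% of all genes. Over the alternative settings the members' median ranged from 0.14 without stress BFU-E library 2 to 0.41 without BM library 3. The medians of all genes in these settings were 0.02 and -0.007. The members' median was 0.28 without BM library 2 and 0.38 in limma on log2(RPKM + 1). There the medians of all genes were 0.07 and 0.13.

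The spread of the BM libraries limited this comparison. The median coefficient of variation of the members was 59.6% in BM BFU-E and 13% in stress BFU-E, where it was 51.7% and 15.1% over all genes. The biological coefficient of variation that edgeR estimated was 0.704 here and 0.25 in the spleen fit. BM library 3 had 8 of the 74 members at a count of 0 and BM library 1 had 5, while BM library 2 and all stress BFU-E libraries had 0. Over all genes of the table, 15.3%, 5.81% and 1.53% were at 0 in BM libraries 3, 1 and 2. Markers moved as well: the summed myeloid markers (7 genes) were at 755.5 to 1789 CPM in BM and 622.7 to 754.5 in stress BFU-E. Erythroid markers (7 genes) were at 160.1 to 273.7 and 298.6 to 345, and stem and MPP markers (6 genes) at 563.6 to 752.5 and 434.3 to 458.6. Megakaryocyte markers (6 genes), at 1881 to 2889 and 1749 to 2032, overlapped. Mast cell and basophil markers (4 genes), at 7.387 to 66.22 and 11.21 to 32.92, overlapped as well. The part of these differences was not tested.

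The members with the largest differences show that spread. Mrpl34, of the large subunit, was at 31.67, 29.68 and 19.78 CPM in stress BFU-E and at 14.21, 10.89 and 0.0 in BM BFU-E. The groups did not overlap, and the difference was 1.69 ± 1.37 (adjusted p = 0.765). Mrps31, of the small subunit, differed by 1.68 ± 1.53 (adjusted p = 0.793), with 21.59, 11.18 and 23.31 CPM against 0.0, 4.381 and 13.18. Mrpl9, of the large subunit, was at 54.78, 63.95 and 53.5 CPM against 15.3, 40.56 and 1.448, a difference of 1.59 ± 0.918 (adjusted p = 0.648). In the other direction stood Mrps21, of the small subunit, at 19.02, 20.19 and 15.62 CPM in stress BFU-E. Its BM libraries were at 77.9, 5.132 and 75.61, with library 2 below every stress library and the other BM libraries above them (-1.53 ± 0.849, adjusted p = 0.626). Mrpl51 was at 5.859, 9.638 and 97.91 CPM in BM, so BM library 3 alone was above the stress range (-1.11 ± 1.01, adjusted p = 0.792). Mrpl48 differed by -0.84 ± 0.715 (adjusted p = 0.775).

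Mrpl3, a core protein of the large subunit, differed by 1.33 ± 0.459, with a smaller SE than those members (edgeR adjusted p = 0.393). Its BM level still varied widely, at 30.15 ± 16.12 CPM (mean ± SD, n = 3). Mrpl3 was at 76.07, 74 and 77.29 CPM in stress BFU-E and at 45.46, 31.67 and 13.33 in BM BFU-E, without overlap. Mrpl11, at the base of the stalk, was at 29.7, 25.73 and 16.74 CPM against 13.35, 8.136 and 8.546, also without overlap. Stress BFU-E was higher without overlap in 13 of 74 members and lower in 1, Mrpl22, where 12.8% and 9.08% of all genes were. Mrpl52 was at 73.42, 80.3 and 67.04 CPM in stress BFU-E and 114.0, 72.73 and 98.49 in BM (-0.37 ± 0.26, adjusted p = 0.716). Mrpl12 was at 103.3, 116.5 and 91.71 against 110.3, 77.73 and 80.53, with overlap. The members took 0.3107%, 0.3054% and 0.2913% of counts in the stress BFU-E libraries and 0.2608%, 0.2229% and 0.3254% in the BM libraries, which lay on both sides.

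**Figure D5:**
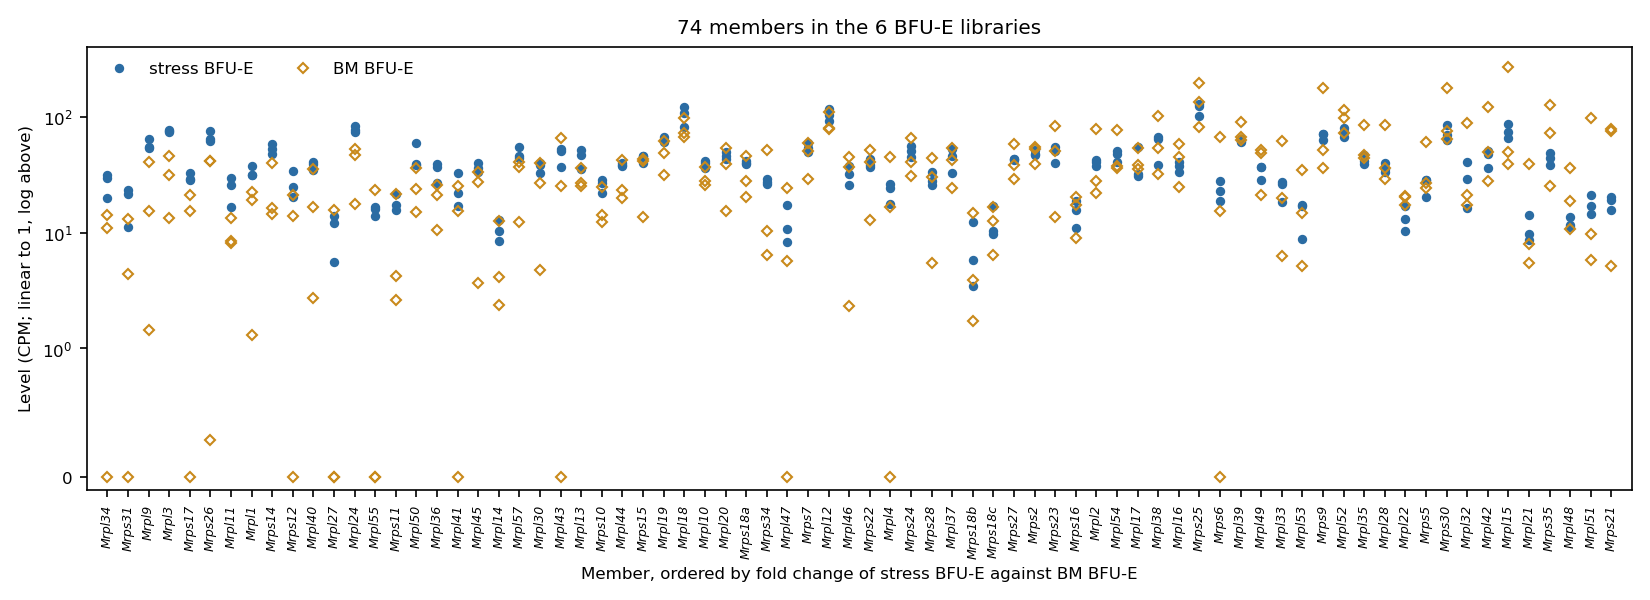
Level (CPM, linear to 1 and logarithmic above) of the 74 members in the 3 stress BFU-E libraries (filled circles) and the 3 BM BFU-E libraries (open diamonds), ordered by fold change. The diamonds scatter far more than the circles, down to 0 in BM libraries 1 and 3.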

How the data were processed

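The submitters' processing notes name HOMER 4.8, STAR 2.6.0b-1, Bowtie2 2.3.4.2, DESeq2 and build mm10 (GRCm38), with no role for each. Per the file headers, the authors counted reads over exons with HOMER and kept 1 transcript per gene; the deposited count tables hold raw counts. The deposited RPKM tables scale reads to exon length and library size. The BM columns of the larger RPKM table did not match the deposited counts (median of the members 50.49 RPKM, against 13.35 in the table of both BFU-E), so BM levels come from the latter, where 1 BM column carries no number. The deposited ATAC lists hold a score per peak; caller and threshold are not given in the sources used here. Repeated entries for 1 interval were merged (76147 entries to 35142 intervals in BM, 117426 to 61661 in stress BFU-E).

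For the tests, edgeR 4.0.16 was run under R 4.3.3 (TMM, quasi-likelihood F test, Benjamini-Hochberg adjustment over all genes, threshold 0.05): all 9 spleen libraries in 1 fit of 10166 genes with a mean of at least 50 counts, and the 6 BFU-E libraries on the 10702 genes the authors kept. CPM carry the TMM factors. The SE of a log2 fold change was taken as the fold change over the root of the F statistic. The code was tested on simulated data. Alternatives were DESeq2 1.42.0, RLE scaling, other filters, leaving out non-coding RNA, a replicate block, limma 3.58.1 on log2(RPKM + 1) for the BFU-E table, and leaving out each library. DESeq2's parametric dispersion trend did not settle on the BFU-E table, so its local trend was used there, and its mean trend was added; this choice was made after seeing the data. Copies were searched with minimap2 2.31-r1302.

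The members follow from their symbols, but this gene family and the gene lists were chosen with earlier results of these data known. Named were, per comparison, up to 6 members per direction past the threshold with the largest fold change, or the 3 largest and 3 smallest where none passed. Also named were the 5 members with the highest and the 5 with the lowest mean RPKM, Mrps18a, Mrps18b, Mrps18c, Mrpl10, Mrpl12, Mrps30, Mrps36 and Mrpl55, members under the filter or without a promoter peak, and up to 3 genes per list and direction.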

Additional observations from a re-analysis of the deposited data

How the results depend on the processing

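No named member or listed gene changed direction while past the threshold in any setting. Leaving out 1 library gave 630 values for them, of which 529 kept their side of the threshold, 98 lost the call and 3 gained it. Many of the 630 belong to genes not past the threshold in the main fit, which had no call to lose. From stress BFU-E to CFU-E, 3 of 8 called members and 4 of 11 called listed genes passed in all 11 settings. From MPP to CFU-E, 5 of 14 and 9 of 14 did. The other settings without a block gave 454 values, of which 453 kept their side and 1 gained a call. Leaving out 1 library gave 4 to 8 members higher in CFU-E than in stress BFU-E (5 without CFU-E library 1, 4 without stress BFU-E library 2 and 4 without library 3). Against MPP it gave 6 to 14 higher (6 without CFU-E library 1, 7 without CFU-E library 2 and 7 without MPP library 1) and 0 to 1 lower, the 1 without CFU-E library 2. Between stress BFU-E and MPP it gave 0 to 1 higher, and a median of -0.0145 without stress BFU-E library 2 up to 0.0612 without MPP library 2, so the sign of that median is not settled. Between stress and BM BFU-E the members' median ranged from 0.143 (without stress BFU-E library 2) to 0.408 (without BM library 3), with 0.278 without BM library 2, and was 0.383 in limma on RPKM, where the median of all genes was 0.131. DESeq2 called 1 member higher there with its local and 1 with its mean dispersion trend, and these were different genes. The default parametric trend did not settle reproducibly on this table; when its iterations happened to stop, no member passed. Without non-coding RNA the mean share of counts in members was 0.3394% in MPP, 0.3398% in stress BFU-E and 0.4225% in CFU-E, and 0.3411% in stress BFU-E and 0.3075% in BM BFU-E in the table of both BFU-E.

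Same-numbered libraries did not deviate together beyond r = 0.116 (lowest -0.0361). Within the spleen r was 0.0151 to 0.116. By a cut of 0.1, which not every pair reached, the numbers were not taken as pairs in the main fits. Libraries that correlated best with their own number were 6 of 6 for stress BFU-E against MPP, 5 of 6 for CFU-E against stress BFU-E, 6 of 6 for CFU-E against MPP and 0 of 6 for the BFU-E populations. Whether same-numbered spleen libraries share a source was not tested, so the fit with a block is given as well. With the replicate number as a block, 8 members were higher in CFU-E than in stress BFU-E (7 of the 8 shared, Mrpl18 in place of Mrpl35), 13 in CFU-E than in MPP and 0 in the other comparisons, and the BM median was 0.404 where that of all genes was 0.192. Of 105 named values, the block left 101 on their side of the threshold, 3 lost it and 1 gained it. The calls lost were Mrpl35 and Rars2 against stress BFU-E (adjusted p = 0.0539 and 0.0543) and Mrpl45 against MPP (0.0569). Mrpl23, Mrps33 and Mrps36 entered the fits of the spleen libraries without the count minimum, where all 77 members were tested and none of these 3 passed.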
